A study of Mus musculus with 6 samples.

Results

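Oxidative phosphorylation is carried out by 5 protein complexes of the inner mitochondrial membrane, and the transcripts examined here are those of its subunits that are encoded in the nucleus. They were measured by RNA-seq in whole brains of wild-type C57BL/6 mouse embryos at E15.5. There were 3 samples from females (F1, F2 and F3) and 3 from males (M1, M2 and M3), each a pool of the RNA of several embryos whose sex had been read from the gonads. No treatment was given, and sex is the only difference between the groups in the labels. Members were taken by symbol, and the set was proposed with earlier results of these data known. They are the transcripts of the Nduf subunit families, Sdha to Sdhd, the Uqcr, Cox4 to Cox8 and Atp5 families, Cyc1 and Cycs. The rule found 82 RefSeq transcript IDs of 79 genes among 23485 IDs, or among 20937 genes with a symbol.

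Complexes I and II pass electrons from NADH and succinate to ubiquinone. Complex III passes them on to cytochrome c and complex IV to oxygen. Complexes I, III and IV pump protons as they do so, and complex V, the ATP synthase, uses the return of those protons to make ATP. Part of complexes I, III, IV and V is encoded in mitochondrial DNA and is not covered here. Complex IV has subunits that exist as a widely expressed and a muscle isoform. Developing neurons and dividing progenitors both depend on mitochondria, and the demand for ATP is high in brain.

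The samples had totals of 4908565 to 10294443 counts. CPM are counts relative to the library total, here scaled by TMM, which corrects totals for composition. The limit that a count of 0 allows, 3 counts, corresponded to 0.291 to 0.611 CPM before TMM scaling. This limit covers counting error only. Of the 82 member IDs, 68 had 10 or more counts in at least 1 sample and were tested, and the other 14 had at most 9 counts in every sample. Pools are taken as replicates, but nothing says that they came from separate litters, so p-values measure only the spread between these samples. The summed level of the neuron list (7 of 9 IDs tested), which holds the tubulin gene Tubb3, was 3032 to 3570 CPM in female and 3395 to 4295 CPM in male samples. Transcripts of other tissues were also present. The skeletal muscle list (10 of 11 IDs tested) summed to 6611 to 7612 CPM in female and 4771 to 7522 CPM in male samples, with Myh3, an embryonic myosin, at 1906 to 2793 CPM, and the muscle genes Neb, Tnnc2, Ckm and Myog were also well above the limit in every sample, while Acta1 and Mylpf were near 0. The fibroblast and meninges list (7 of 9 tested), led by collagens, summed to 18890 to 23287 CPM and 17470 to 25766 CPM. The choroid plexus list (3 of 3 tested) was the one of 8 lists whose sums did not overlap between the sexes, with 450 to 546 CPM in female and 567 to 740 CPM in male samples. One member, Ttr, made up most of that sum, with 474 ± 46.8 and 619 ± 84.9 CPM, while Clic6 (30.1 ± 4.30 and 32.2 ± 5.15 CPM) and Kl (4.28 ± 0.641 and 3.90 ± 1.61 CPM) overlapped. Neural progenitor sums were 2718 to 3072 and 2810 to 3231 CPM, erythroid sums 754 to 1016 and 630 to 1169 CPM, cartilage sums 184 to 355 and 156 to 309 CPM, and surface epithelium sums 982 to 1213 and 789 to 1855 CPM. Median log2 fold changes (male over female) of the tested IDs were 0.30 for surface epithelium, 0.18 for neural progenitor, 0.10 for choroid plexus and 0.07 for neuron. They were -0.07 for fibroblast and meninges, -0.10 for muscle, -0.17 for erythroid and -0.45 for cartilage, against -0.01 for all tested IDs.

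Subunit transcripts were on balance more abundant in the male samples, but no single one passed edgeR's test with the settings used throughout, and DESeq2 and some other settings called up to 20. The summed level of all member IDs was 7587 CPM in F1, 8016 in F2 and 9147 in F3, and 11669 CPM in M1, 10212 in M2 and 9242 in M3. The sums did not overlap between the sexes, although F3 and M3 differed by little. Together the members took 0.754% to 0.911% of the counts in female and 0.938% to 1.1% in male samples. In bulk samples, more cells of a type and more RNA per cell cannot be told apart.

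By edgeR's quasi-likelihood test, adjusted by the Benjamini-Hochberg method for the 13374 tested IDs, 0 of the 68 members were called at an adjusted p under 0.05, against 0.0299% of all tested IDs, and the lowest adjusted p of a member was 0.338. At an unadjusted p under 0.05, 30 of 68 (44.1%) were higher in males, against 6.68% of all tested IDs. In the other direction the count was 0 members, against 4.82%. These 30 had log2 fold changes of 0.31 to 0.79 (male over female) and adjusted p-values of 0.338 to 0.421. Over all 68, the log2 fold change was above 0 for 56, against 49.0% of all tested IDs, and the median was 0.33, against -0.01. In 26 members (38.2%) all 3 male CPM values lay above all 3 female values, against 8.7% of all tested IDs, and in 1 member, Cycs, they lay below, against 8.35%. Restricted to IDs averaging 50 counts or more, the median was 0.36 over 58 members and 0.03 over 8358 IDs. Of these 58 members, 30 were higher in males at an unadjusted p under 0.05, against 10.1% of the 8358 IDs.

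The count of called members depended on the test. DESeq2 gave an adjusted p to 49 members and called 7, all higher in males, against 1.29% of the IDs with an adjusted p. The 7 were Uqcr11, Atp5e, Ndufb6, Cox6a1, Atp5j2, Sdhd and Cox7a2. With 1 RUVr factor, a term for unwanted variation estimated from residuals, DESeq2 called 20 of 57, against 2.45%, and the 7 were among the 20. The same factor in edgeR gave 0. Without the filter on low counts edgeR called 13 of 82, against 0.813% of all IDs.

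**Figure D1:**
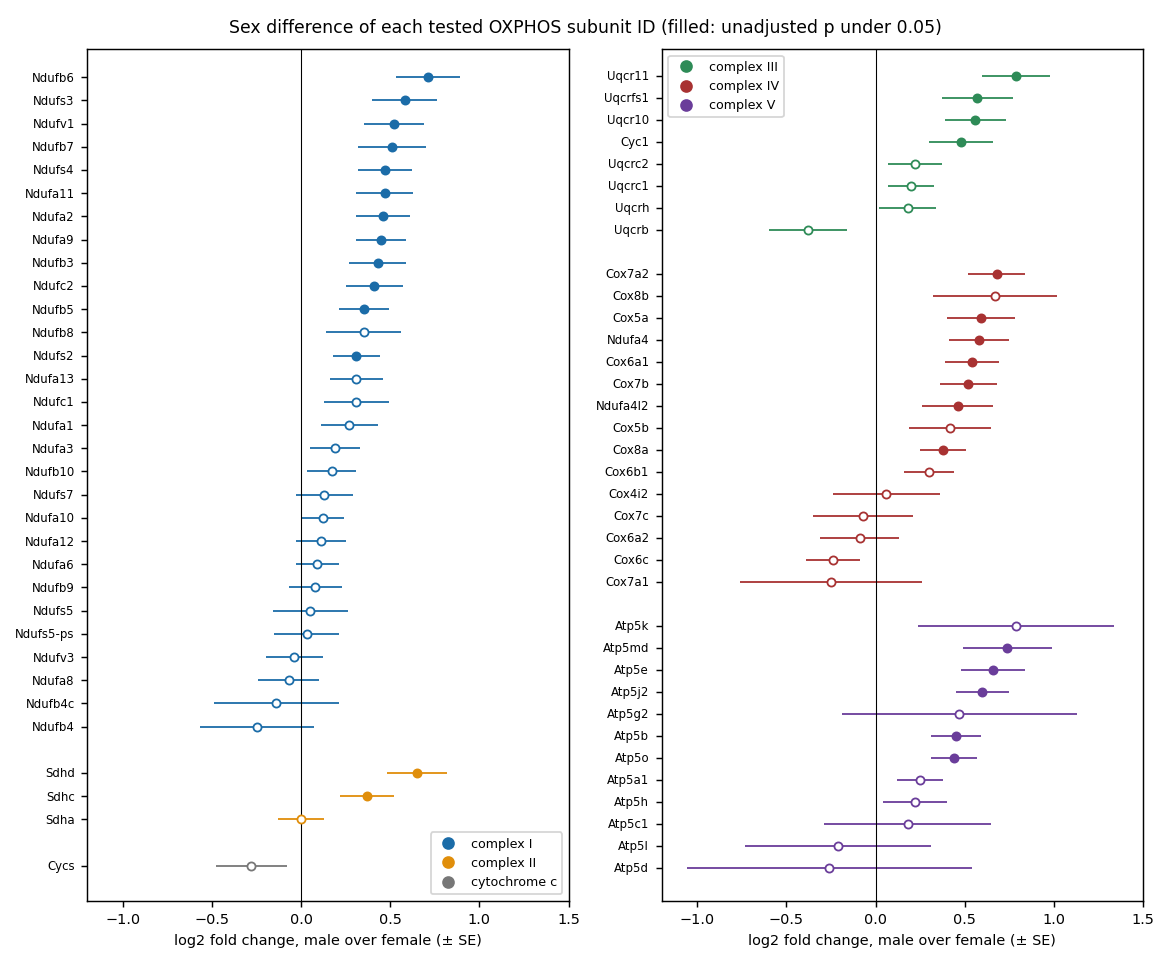
Log2 fold change (male over female) with its standard error for each of the 68 tested member IDs, in panels by complex, with filled points for an unadjusted p under 0.05. The 30 filled points lie between 0.31 and 0.79, and 12 of 68 points lie below 0.

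The samples of each sex were not alike. The median deviation of the members from their mean over the 6 samples, on the log2(CPM + 1) scale, was -0.25 in F1, -0.19 in F2 and -0.03 in F3, and 0.33 in M1, 0.13 in M2 and 0.02 in M3. M1 had the highest value for 50 of the 68 members, and F1 the lowest for 29. M3 exceeded F3 for 36 of 68, whereas M1 exceeded F1 for 58. Without M1 the median log2 fold change was 0.23, and 20 members were higher at an unadjusted p under 0.05, against 4.26% of all tested IDs. By complex, the medians without M1 were 0.13 for complex I, 0.21 for II, 0.19 for III, 0.25 for IV and 0.40 for V. Without F1, 19 members were higher at an unadjusted p under 0.05, against 3.43%. Without F3 it was 0.44, and edgeR called 4 members (Uqcr11, Uqcrfs1, Ndufa4 and Cox7a2), against 0.365% of all tested IDs. In M1 the muscle and cartilage lists were at their lowest (4771 and 156 CPM) and the neuron, neural progenitor, choroid plexus and surface epithelium lists at their highest (4295, 3231, 740 and 1855 CPM). In F1 the neuron, neural progenitor and choroid plexus lists were at their lowest (3032, 2718 and 450 CPM). Whether these levels had a part in the subunit values was not tested.

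**Figure D2:**
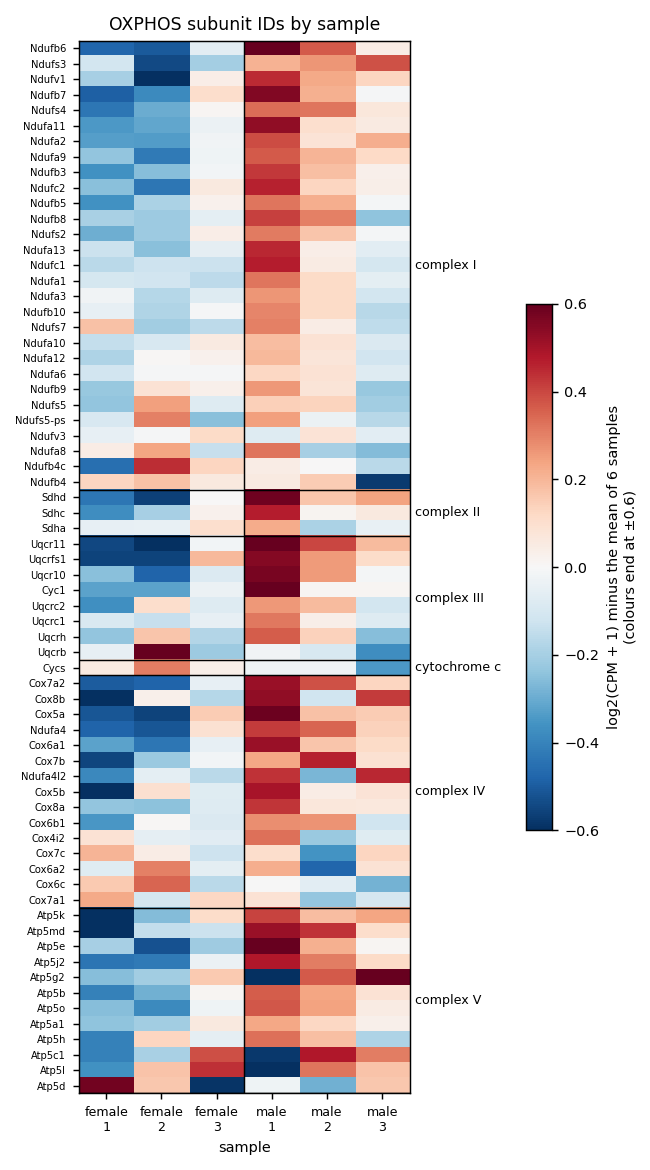
Deviation of each tested member ID (rows, grouped by complex) from its mean over the 6 samples on the log2(CPM + 1) scale, with red above and blue below the mean and colours ending at ±0.6. M1 is the reddest column, with a median deviation of 0.33, and F3 (-0.03) and M3 (0.02) are nearly white.

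Most subunit transcripts are short, and log2 fold changes ran with transcript length over all genes. The median annotated length was 746 nt for tested members and 2868 nt for all tested IDs with a length, and median GC content was 52.2% and 50.4%. The log2 fold change had a Spearman rho of -0.25 with length and 0.28 with GC over all tested IDs with a length (n = 12624, which share the same 6 libraries), and of -0.46 with length over those averaging 50 counts or more (n = 8086). Within the members rho was -0.15 with length and 0.07 with GC (n = 66). Trends with length and GC were therefore removed from each sample in 2 ways. With trends fitted on all tested IDs, the median log2 fold change of the members was 0.25, against 0.05 for all tested IDs. Then 24 members were higher in males at an unadjusted p under 0.05, against 5.84% of all tested IDs, and 0 were lower, against 3.06%. The male values lay wholly above the female ones in 10, against 7.37%, and wholly below in 0, against 5.33%. With trends fitted on IDs averaging 50 counts or more, a choice made after the data were seen, the median was 0.12, against -0.03. Here 16 members were higher at an unadjusted p under 0.05, against 4.55%, and 3 (Ndufa8, Uqcrb and Cox6c) were lower, against 4.97%. Values lay wholly above in 17, against 7.34%, and wholly below in 8, against 7.88%. In both fits 0 members were called by edgeR. The size of the difference that is left thus depended on how the trends were fitted.

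**Figure D3:**
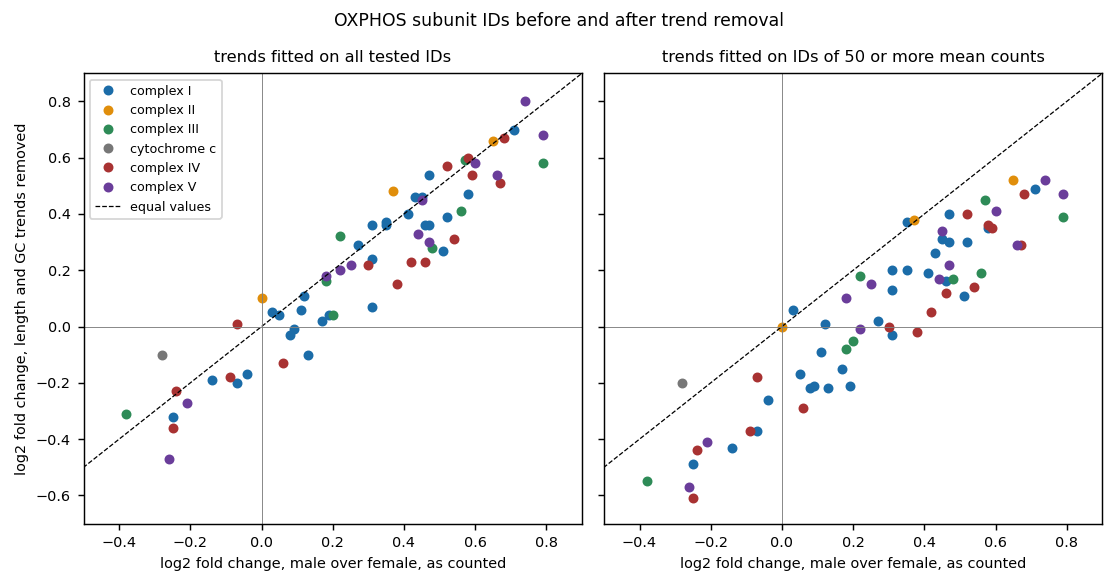
Log2 fold change (male over female) of each tested member ID as counted (horizontal axes) and after removal of length and GC trends (vertical axes), coloured by complex, with a dashed line for equal values. With trends fitted on all tested IDs (left) the median is 0.25 and points lie on both sides of the line. There Cox6a1 moved from 0.54 to 0.31 and Sdhc from 0.37 to 0.48. With trends fitted on IDs averaging 50 counts or more (right) the median is 0.12 and most points lie below the line.

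Motifs of factors known to act on genes for mitochondrial proteins were looked up in the promoters, since most members lay on one side of 0. Windows from 250 bases before to 50 bases after the gene start came from RefSeq (GRCm38.p6) and were found for 62 of the 79 genes. The core of the site of NRF1, a transcription factor of many respiratory chain genes, was searched as GCATGCG on both strands. An exact match was present in 11 of the 62 genes (17.7%) and in 4.01% of 27025 genes. The motif of ETS factors such as GABPA, CCGGAAG on either strand, was present in 16 (25.8%), against 9.93%. For YY1 (AAGATGG) the count was 9 (14.5%), against 7.28%, for SP1 (GGGCGG) 26 (41.9%), against 38.2%, and for the TATA box (TATAAA) 7 (11.3%), against 15.7%. These 4 were also searched on both strands, and a window could hold several. Matches describe the sequence, not binding. The NRF1 cores of 4 members are shown to give the bases around the match in members with log2 fold changes from 0.54 to -0.28, with 10 bases on each side, read on the strand of the gene, and the match in capitals.
Cox6a1, chr5:115349102-115349128 (minus strand): ggaacggggcGCATGCGcgctctcgct
Ndufa11, chr17:56717694-56717720 (plus strand): tgcactgcgcGCATGCGcgcacgcctt
Ndufa6, chr15:82354358-82354384 (minus strand): ccgcggtagaGCATGCGcattgcagag
Cycs, chr6:50566613-50566639 (minus strand): atgctagctcGCATGCGcgcgcacaaa
The match ended 153, 51, 76 and 53 bases before the gene start, in that order, and the log2 fold changes were 0.54, 0.47, 0.09 and -0.28.

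Complex I, the largest complex, had 32 member IDs, of which 29 were tested, and its median log2 fold change was 0.31. At an unadjusted p under 0.05, 12 of the 29 were higher in males (41.4%, against 6.68% of all tested IDs), and in 10 the sexes did not overlap (34.5%, against 8.7%). After removal of the trends of all tested IDs the median was 0.24 with 10 higher, and after removal of those of IDs averaging 50 counts or more it was 0.06 with 5 higher. Without M1 it was 0.13 with 6 higher. Summed CPM was 2118 ± 164 (SD, n = 3) in female and 2581 ± 341 in male samples. Ndufb6, an accessory subunit of the membrane arm (chr4:40217624-40226454, NCBIM37), had 34.0, 33.4 and 45.6 CPM in female and 74.7, 61.8 and 49.2 CPM in male samples, with a log2 fold change of 0.71 (SE 0.18), or 0.70 and 0.49 after the 2 trend removals (all tested IDs first, here and later). Its sexes did not overlap, but M3 was close to F3. Ndufs3, a core subunit of the arm that holds the iron-sulfur clusters (chr2:90734791-90744984), had 22.5, 16.4 and 21.0 CPM against 28.3, 29.5 and 32.0 CPM, with a log2 fold change of 0.58 (SE 0.18), or 0.47 and 0.35 after the removals. Here the highest value was in M3, not M1. Ndufa9, an accessory subunit near the ubiquinone site, had 89.0, 77.9 and 103 CPM against 136, 121 and 114 CPM and a log2 fold change of 0.45 (SE 0.14), or 0.46 and 0.31 after the removals.

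Other named subunits of complex I differed less. The accessory subunit Ndufa8 had 87.1 ± 11.6 CPM in female and 82.7 ± 19.8 CPM in male samples (log2 fold change -0.07, SE 0.17), and after the 2 trend removals its log2 fold change was -0.20 and -0.37. Ndufv3, a small subunit of the NADH-binding module, had 26.3 ± 1.62 and 25.6 ± 1.65 CPM. As counted, both differences are within the spread between samples. The most abundant of the complex per kilobase of transcript were Ndufa3 (225 CPM per kb) and Ndufb9 (223 CPM per kb). Their log2 fold changes were 0.19 (SE 0.14) for Ndufa3 and 0.08 (SE 0.15) for Ndufb9. With trends fitted on all tested IDs removed, they were 0.04 and -0.03, and with trends of IDs averaging 50 counts or more, -0.21 and -0.22. Without 1 sample at a time, Ndufa3 was at 0.09 (without M1) to 0.29 (without M3) and Ndufb9 at -0.04 to 0.21 (the same samples). Ndufa1 is X-linked and was at 31.8, 31.6 and 30.7 CPM in female and 43.2, 37.3 and 32.9 CPM in male samples. Its female values lay very close together and below all male values, and the log2 fold change was 0.27 (SE 0.16), or 0.29 and 0.02 after the 2 trend removals and 0.16 without M1. Ndufs5-ps, named as a pseudogene, met the rule as well, with a log2 fold change of 0.03.

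Complex II differs from the others in that all its subunits are nuclear-encoded, and it is also an enzyme of the tricarboxylic acid cycle. Its 3 tested members ranged from 0.00 to 0.65 in log2 fold change, with a median of 0.37, or 0.21 without M1. Sdhd, a membrane anchor (chr9:50404443-50411954), had 102, 93.3 and 138 CPM in female and 207, 155 and 163 CPM in male samples (log2 fold change 0.65, SE 0.17, and 0.66 and 0.52 after the trend removals). Sdhc, the other anchor, had 108, 122 and 143 CPM against 195, 142 and 146 CPM (log2 fold change 0.37, SE 0.15, and 0.48 and 0.38 after the removals), and its groups overlapped. Without M1 the value of Sdhc was 0.21. The catalytic subunit Sdha had 298, 299 and 330 CPM against 359, 270 and 299 CPM, with means of 309 in both sexes and a log2 fold change of 0.00 (SE 0.13). The differences between these 3 subunits were not tested. Sdhb, the iron-sulfur subunit, had at most 1 count in a sample.

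Complex III had 9 IDs, of which 8 were tested, with a median log2 fold change of 0.35 and 4 of the 8 higher in males at an unadjusted p under 0.05 (50%, against 6.68% of all tested IDs). The median was 0.30 and 0.17 after the 2 trend removals, with 3 and 2 higher, and 0.19 without M1. The count higher was 2 without F1 and 2 without F2, against 3.43% and 3.12% of all tested IDs. It was 6 without M3, against 8.19%. Uqcr11, a small subunit (chr10:79865742-79869575), had 34.4, 32.2 and 50.1 CPM in female and 78.5, 67.3 and 58.0 CPM in male samples. Its log2 fold change was 0.79 (SE 0.19), or 0.58 and 0.39 after the 2 trend removals, and the sexes did not overlap. Its transcript has 2 near-identical copies elsewhere in the genome, so reads may have been shared. The same limit holds for Ndufs3, Uqcrh, Cox7b, Cox6c and Atp5j2, with 1 copy each. Uqcr10, another small subunit, had 55.3, 47.1 and 62.4 CPM against 98.6, 79.0 and 65.4 CPM (log2 fold change 0.56, SE 0.17, and 0.41 and 0.19 after the removals). Uqcrfs1, the Rieske iron-sulfur protein that passes electrons on to cytochrome c1, had 81.7, 81.7 and 138 CPM against 177, 144 and 130 CPM (log2 fold change 0.57, SE 0.20, and 0.59 and 0.45 after the removals). F3 was above M3 for this gene, so its groups overlapped, and without F3 its value was 0.89 (edgeR adjusted p = 0.0466).

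The other named subunits of complex III did not reach an unadjusted p under 0.05. Uqcrc1, a core protein, had 291 ± 9.14 CPM in female and 333 ± 48.4 CPM in male samples (log2 fold change 0.20, SE 0.13). Uqcrh, the hinge protein that binds cytochrome c1, was the most abundant of the complex per kilobase (400 CPM per kb) and had a log2 fold change of 0.18 (SE 0.16). With trends fitted on all tested IDs removed, these were 0.04 and 0.16, and with trends of IDs averaging 50 counts or more, -0.05 and -0.08. Without 1 sample at a time, Uqcrc1 was at 0.07 to 0.29, lowest without M1, and Uqcrh at 0.02 without M1 to 0.34 without M3. Uqcrb, a ubiquinone-binding subunit, had the lowest value of the 68, with 68.2, 120 and 60.5 CPM in female and 69.6, 66.0 and 54.4 CPM in male samples (log2 fold change -0.38, SE 0.22, and -0.31 and -0.55 after the 2 trend removals). F2 stood above the other 5 samples, without F2 the value was -0.02, and the transcript has 3 near-identical copies. Cycs, which encodes cytochrome c, the carrier between complexes III and IV, had 15.6, 18.8 and 15.4 CPM against 14.7, 14.7 and 11.6 CPM. Its male values were all below its female values, with a log2 fold change of -0.28 (SE 0.20), or -0.10 and -0.20 after the trend removals and -0.16 without M3, and 5 near-identical copies of the transcript.

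**Figure D4:**
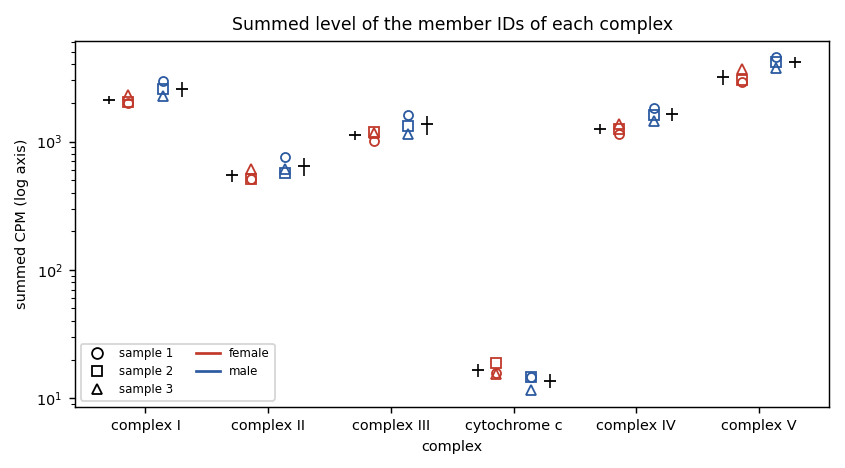
Summed CPM (log axis) of the member IDs of each complex, with female samples in red and male samples in blue, a symbol for each replicate number and black bars for mean and SD (n = 3 per sex). For complexes IV and V all male sums lie above all female sums, for complexes I, II and III they overlap, and for cytochrome c all male values lie below.

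Complex IV had 19 IDs, of which 15 were tested, with a median log2 fold change of 0.42 and 7 of the 15 higher in males at an unadjusted p under 0.05 (46.7%, against 6.68% of all tested IDs). After the 2 trend removals the median was 0.23 and 0.05, with 4 higher in each, and without M1 it was 0.25. Ndufa4 and Ndufa4l2 are counted here, because NDUFA4 is a subunit of complex IV despite its name. Without the pair the median was 0.38. Summed CPM was 1142, 1254 and 1369 in female and 1828, 1610 and 1450 in male samples, which did not overlap. Cox7a2 (chr9:79603048-79607660) had the smallest unadjusted p of all members, 0.000815, with an adjusted p of 0.338 by edgeR. It was at 81.2, 82.3 and 111 CPM in female and 165, 150 and 126 CPM in male samples, with a log2 fold change of 0.68 (SE 0.16), or 0.67 and 0.47 after the 2 trend removals.

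Several complex IV subunits exist as a widely expressed form and a form typical of heart and skeletal muscle, so each pair was set side by side. Cox6a1 (chr5:115795651-115798990), the widely expressed form, had 133, 123 and 161 CPM in female and 239, 187 and 180 CPM in male samples (log2 fold change 0.54, SE 0.15), and the sexes did not overlap. After the 2 trend removals Cox6a1 was at 0.31 and 0.14, neither with an unadjusted p under 0.05. Cox6a2, its muscle form, had 19.8, 26.0 and 20 CPM against 24.4, 14.7 and 22.2 CPM (log2 fold change -0.09, SE 0.22, and -0.18 and -0.37 after the removals). The muscle forms were low beside the others in every sample, although none was at 0. Per kilobase, the ratio of Cox6a1 to Cox6a2 was 7.74, 5.48 and 9.29 in female and 11.3, 14.7 and 9.34 in male samples, which did not overlap by a narrow margin. The ratio of Cox7a2 to the muscle form Cox7a1 was 17.3 to 52.5 over the 6 samples. Cox7a1 had a mean of 14.3 counts only, so the sexes were not compared for this ratio. Cox8a exceeded its muscle form Cox8b 25.1 to 52.6 times per kilobase, with overlapping sexes. The log2 fold changes of this pair were 0.38 (SE 0.13) and 0.67 (SE 0.35), or 0.51 and 0.29 for Cox8b after the removals.

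The remaining named subunits of complex IV were of varied direction. Ndufa4 had 102, 99.5 and 152 CPM in female and 191, 182 and 157 CPM in male samples (log2 fold change 0.58, SE 0.17, and 0.60 and 0.36 after the removals), and its paralog Ndufa4l2, known to be induced by hypoxia, had 29.7 ± 3.48 and 40.6 ± 10.8 CPM (log2 fold change 0.46, and 0.23 and 0.12 after the removals) with overlapping sexes. Cox7b, which is X-linked, had 81.0, 102 and 118 CPM against 140, 165 and 127 CPM (log2 fold change 0.52, SE 0.16, and 0.57 and 0.40 after the removals), and here M2 was the highest. Cox6b1 was the most abundant of the complex per kilobase (509 CPM per kb), followed by Cox8a (479 CPM per kb). Cox6b1 had a log2 fold change of 0.30 (SE 0.14). Cox6b1 and Cox8a were at 0.22 and 0.15 with trends fitted on all tested IDs removed, and at -0.00077 and -0.02 with those of IDs averaging 50 counts or more, and Cox8a was at 0.25 without M1. Cox6c went the other way, with 181, 207 and 145 CPM in female and 162, 155 and 133 CPM in male samples (log2 fold change -0.24, SE 0.15, and -0.23 and -0.44 after the 2 trend removals), and without F2 it was at -0.12. Cox4i2, the form of subunit 4 that is typical of lung, was at 6.0 ± 0.421 and 6.20 ± 1.48 CPM. The 2 IDs of Cox4i1, its widely expressed counterpart, were not tested, with at most 9 counts in a sample.

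Complex V had 17 IDs, of which 12 were tested, with a median log2 fold change of 0.45. At an unadjusted p under 0.05, 5 of the 12 were higher in males (41.7%, against 6.68% of all tested IDs), and in 6 the sexes did not overlap (50%, against 8.7%). The trend removals gave medians of 0.31 and 0.19, with 5 and 3 higher, and without M1 the median was 0.40 with 5 higher. Its catalytic part was the most abundant of all members. Atp5b, the catalytic beta subunit (chr10:127520329-127527447), had 1164, 1263 and 1557 CPM in female and 1986, 1821 and 1640 CPM in male samples (log2 fold change 0.45, SE 0.14, and 0.45 and 0.34 after the trend removals). The alpha subunit Atp5a1 (chr18:78012468-78021608) had 1273, 1302 and 1569 CPM against 1769, 1642 and 1534 CPM (log2 fold change 0.25, SE 0.13, and 0.22 and 0.15 after the removals). All male values of Atp5b lay above the female ones, but Atp5a1 overlapped. With 820 and 566 CPM per kb they were the 2 highest members per kilobase, and the pair held 0.242% to 0.356% of all counts.

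Atp5e, the epsilon subunit of the central stalk (chr2:174286573-174289606), had 66.9, 53.3 and 66.2 CPM in female and 127, 89.4 and 77.7 CPM in male samples (log2 fold change 0.66, SE 0.18, and 0.54 and 0.29 after the 2 trend removals), and its value without M1 was 0.42. Atp5j2, a subunit of the membrane part (chr5:145944567-145952931), had 95, 96.1 and 126 CPM against 181, 160 and 140 CPM (log2 fold change 0.60, SE 0.15, and 0.58 and 0.41 after the removals). Neither overlapped between the sexes. Atp5h, a subunit of the peripheral stalk, had 51.7 ± 9.60 and 60.4 ± 10.8 CPM (log2 fold change 0.22, SE 0.18, and 0.20 and -0.01 after the 2 trend removals), a difference within the spread between samples. It was at 0.09 without F1, 0.10 without M1, 0.34 without F2 and 0.37 without M3. Its transcript has 4 near-identical copies.

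Some subunits that every respiring cell needs were listed at or near 0. Besides Cox4i1 and Sdhb, chosen here after their values were seen, Ndufs8 and Uqcrq had means of 0.167 and 2.17 counts. Counts differed with the number of RefSeq transcripts of the gene. The 58 IDs whose gene has 1 transcript in the gene table had a median of 657 mean counts, and 1 of them was not tested. The 24 IDs with 2 or more had a median of 4.67, and 13 were not tested. Gapdh, a glycolytic enzyme outside the respiratory chain with 2 IDs in the tables, was also low, at 2.0 and 0.167 mean counts. How reads shared between transcripts were treated is not given in the sources used here, and low counts of such IDs were not read as low expression. Of the 30 members at an unadjusted p under 0.05, 29 belonged to genes with 1 transcript.

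**Figure D5:**
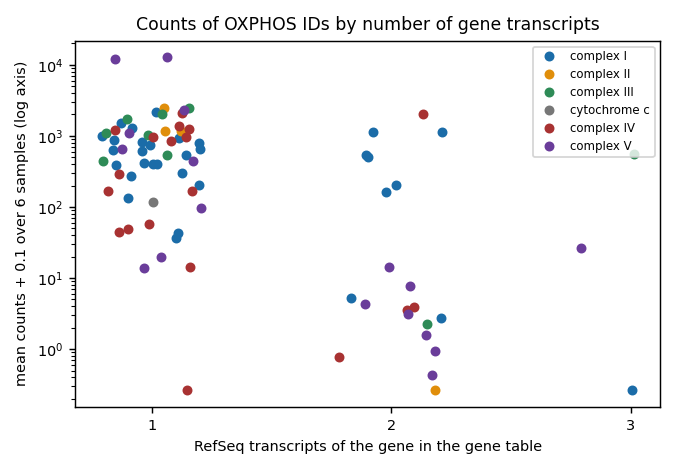
Mean counts over the 6 samples plus 0.1 (log axis) of the 82 member IDs, by the number of RefSeq transcripts of their gene (points spread sideways), coloured by complex. IDs of genes with 1 transcript have a median of 657 counts, and those with 2 or more a median of 4.67.

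Genes that serve the same pathway were examined in 4 related lists, in which edgeR called 0 IDs with the settings used for the members. DESeq2 called 2 of 18 assembly factors (Uqcc2 and Cox14) and 1 of 5 glycolytic IDs (Pgk1), against 1.29% of IDs with an adjusted p. Without the filter on low counts edgeR called 3 of 43 assembly factors and 2 of 25 glycolytic IDs, against 0.813%. With 1 RUVr factor edgeR called 1 of 36 assembly factors, Uqcc2, and the share of all IDs was not computed for that setting. Of 36 tested assembly factors, which put the complexes together, 31 were above 0 and 6 were higher in males at an unadjusted p under 0.05 (16.7%, against 6.68% of all tested IDs), with a median of 0.24, or 0.26 and 0.13 after the 2 trend removals (8 and 6 higher) and 0.16 without M1 (4 higher). Uqcc2, needed for complex III assembly, had 37.3, 37.0 and 48.0 CPM in female and 79.8, 62.7 and 60.5 CPM in male samples (log2 fold change 0.73, SE 0.16, and 0.51 and 0.32 after the removals). Cox14, which acts in complex IV assembly, had 22.1 ± 3.82 and 37.2 ± 3.66 CPM (log2 fold change 0.74, and 0.60 and 0.45 after the removals). Neither overlapped between the sexes. Of 11 tested IDs of the tricarboxylic acid cycle, 10 were above 0 and 0 passed an unadjusted p under 0.05, with a median of 0.14, or 0.24 and 0.13 after the removals, and 0.09 without M1 to 0.23 without M3. Without M2, 1 of 11 was higher in males at that p, against 6.03%, and without M3, 2 of 10, against 8.19%. The 2 with the smallest p, Dlst and Suclg1, were at 0.21 (SE 0.12) and 0.29 (SE 0.15) on the log2 scale, 0.16 and 0.15 after the second removal and 0.13 and 0.11 without M1.

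In glycolysis, which makes ATP without mitochondria, 13 IDs were tested, 10 were above 0 and 3 were higher in males at an unadjusted p under 0.05 (23.1%, against 6.68%), with a median of 0.32, or 0.26 and 0.16 after the 2 trend removals (2 higher in each, and 1 lower in the second) and 0.17 without M2. Pgk1, an X-linked ATP-forming enzyme, had 23.1 ± 7.05 CPM in female and 40.7 ± 1.95 CPM in male samples (log2 fold change 0.80, SE 0.20, and 0.82 and 0.71 after the removals), and Pgam1, a mutase of the pathway, had 20.3 ± 5.25 and 34.6 ± 2.28 CPM. Copies of these transcripts elsewhere in the genome were not searched. Of 9 tested regulators of mitochondrial gene expression, 6 were above 0 and 3 were higher in males at an unadjusted p under 0.05 (33.3%, against 6.68%), with a median of 0.06, or 0.07 and -0.02 after the removals (3 higher in each), and from 0.03 without F1 or M1 to 0.15 without F3. The count higher ran from 1 without F2, against 3.12% of all tested IDs, to 4 without F3, against 10.2%. Esrra, a nuclear receptor acting on respiratory genes, had 22.1 ± 5.23 and 33.7 ± 5.51 CPM (log2 fold change 0.59, and 0.41 and 0.36 after the removals), and Tefm, the mitochondrial transcription elongation factor, had 11.1 ± 0.285 and 17.9 ± 2.41 CPM. Of the 3 regulators below 0, Gabpa had 203, 221 and 205 CPM in female and 183, 179 and 181 CPM in male samples. Its log2 fold change was -0.21 (SE 0.11), and its male values all lay below its female values. Ppargc1b was at -0.31 (SE 0.22) and Twnk (NM_153796) at -0.04 (SE 0.18). The differences between these lists and the subunits were not tested.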

How the data were processed

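RNA of whole brains of 3 female and 3 male samples was sequenced from stranded libraries, read from both ends. Per the study's methods and the submitters' processing notes, reads were trimmed with Trimmomatic 0.32, aligned to mm9 (NCBIM37) with TopHat2 2.1.1, assembled with Cufflinks 2.2.1 and counted with featureCounts 1.5.1. The deposited values are whole-number counts per RefSeq transcript ID, not normalised by the authors. How shared reads and strand were treated is not given in the sources used here.

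Symbols came from a RefSeq table (GRCm38.p6), which named 23359 of 23485 IDs. Lengths, GC and positions came from GENCODE on NCBIM37, using the longest coding transcript of the gene, for 80 of 82 members. Copies were searched with blastn 2.17.0, as hits of at least 95% identity over at least 300 bases or 60% of the transcript outside the gene itself. The members, lists and tests were chosen with earlier results of these data known.

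Male was compared with female by edgeR 4.0.16 (R 4.3.3) quasi-likelihood fits with TMM and no covariate, Benjamini-Hochberg adjusted over IDs that reached 10 counts in any sample. CPM is given as mean ± SD (n = 3) and log2 fold changes as male over female. Named members are, in each complex and at a mean of 50 counts, the 3 with the smallest p, the 2 with the lowest log2 fold change and the 2 most abundant per kilobase, with called members, isoform pairs, X-linked members and the 2 of smallest p in each related list. Others were named after their values were seen. The study used DESeq2 with RUVr, a correction whose number of factors is not stated, so DESeq2 1.42.0 with and without 1 RUVr factor was an alternative. The factor was the leading singular vector of edgeR deviance residuals. Of 17 alternatives, removal of length and GC trends fitted at a mean of 50 counts was added after the data were seen. The fits were tested on simulated counts. The labels give no batch, so no values within batches could be had. The values of the related lists after the trend removals and without single samples were added after the data were seen.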

Additional observations from a re-analysis of the deposited data

How the results depend on the processing

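Over 17 other settings the median log2 fold change of the members stayed above 0, from 0.12 to 0.44. By edgeR, 0 members were called except with no low-count filter (13) and without female sample 3 (4). DESeq2 called 7, and 20 with 1 RUVr factor. In the related lists edgeR called 0 as reported. DESeq2 called 2 of 18 assembly factors and 1 of 5 glycolytic IDs, against 1.29% of IDs with an adjusted p. With 1 RUVr factor DESeq2 called 3 of 31 and 2 of 7, against 2.45%. With no low-count filter edgeR called 3 of 43 and 2 of 25, against 0.813%. With 1 RUVr factor edgeR called 1 of 36 and 0 of 13, and the share of all IDs was not computed. With no low-count filter 1 member was lower in males at an unadjusted p under 0.05, and the median of complex II was 0.53. The cause of these changes was not tested.

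With the trends of IDs with a mean of 50 counts removed, 16 members were higher and 3 lower at an unadjusted p under 0.05, 17 lay wholly above and 8 wholly below the female values, and the medians were 0.12 over all members, 0.06 for complex I, 0.17 for III, 0.05 for IV and 0.19 for V. With trends fitted on all tested IDs, the median was 0.25, 24 members were higher and 0 lower at an unadjusted p under 0.05, 10 members lay wholly above and 0 below, complex IV had a median of 0.23 and cytochrome c a value of -0.10.

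Leaving out 1 sample at a time gave 0 to 4 members called and 19 to 36 higher and 0 to 2 lower at an unadjusted p under 0.05 (19 without female sample 1), where 3.12% to 10.2% of all tested IDs were higher and 2.29% to 6.26% lower. With 2 samples against 3, those wholly above the female values numbered 27 to 46 (46 without male sample 3), where the share of all tested IDs was 11.6% to 20%, and those wholly below 1 to 5 (5 without male sample 1), with 11.7% to 16.8% of all tested IDs. Medians ran from 0.13 to 0.40 for complex I, 0.21 to 0.50 for II, 0.19 to 0.47 for III, 0.25 to 0.49 for IV and 0.37 to 0.59 for V, and the value of cytochrome c from -0.34 to -0.16 (-0.16 without male sample 3), with the low ends of I to IV without male sample 1 and the high end of V without female sample 3.

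Of 43 named transcripts, 12 changed sign in at least 1 setting, and 653 of 731 values kept direction and side of the threshold. With the trends of abundant IDs removed, the log2 fold changes were -0.01 for Atp5h, -0.29 for Cox4i2, -0.00077 for Cox6b1, -0.02 for Cox8a, -0.21 for Ndufa3, -0.22 for Ndufb9, -0.00456 for Sdha, -0.05 for Uqcrc1 and -0.08 for Uqcrh. With trends of all tested IDs removed they were -0.13 for Cox4i2 and -0.03 for Ndufb9. Upper-quartile factors gave -0.00401 for Cox4i2 and -0.06 for Sdha. Sdha, at 0.00, was -0.01 with DESeq2, RLE factors, edgeR with 1 RUVr factor and the replicate block, and -0.02 with DESeq2 and 1 RUVr factor. Without 1 sample, the ranges were -0.15 to 0.18 for Cox4i2, -0.23 to 0.10 for Cox6a2, -0.29 to 0.05 for Ndufa8, -0.04 to 0.21 for Ndufb9, -0.09 to 0.02 for Ndufv3 and -0.12 to 0.10 for Sdha.

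Samples with the same replicate number did not deviate together (r = -0.316, -0.0359 and -0.267 over 8358 IDs). Deviations were taken from means of 3 samples, which ties them to each other within each sex. The values therefore cannot decide whether samples of the same number shared a litter or a preparation. With the replicate number as a block, 0 members were called, 26 were higher at an unadjusted p under 0.05 (5.12% of all tested IDs) and the median was 0.30. At totals down to 4908565 counts, IDs with a few counts, such as Atp5k, Atp5g2 and Cox7a1, have wide errors, and no direction should be read from them.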
